A study of Mus musculus with 79 samples.

Results

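Pgd, Taldo1, Tkt, Me1 and Idh1 code for enzymes that make NADPH in the cytosol or feed the route that does, and their mRNA levels were followed across the lungs of mice exposed to cigarette smoke. The 5 genes were found by matching each array row to a gene symbol. Each had 1 row among the 31350 rows of the array. The rows were NM_001081274 for Pgd on chromosome 4, NM_011528 for Taldo1 on chromosome 7, NM_009388 for Tkt on chromosome 14, NM_001198933 for Me1 on chromosome 9 and NM_010497 for Idh1 on chromosome 1.

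RNA from homogenized whole lung tissue of 79 mice was hybridized to Affymetrix moGene2.1 arrays, with 1 array per mouse. The mice were 5 to 7 weeks old and came from C57BL/6J litters in which wildtype (WT) pups and pups overexpressing Scnn1b (βENaC mice) were littermates. Smoke mice received the smoke of 6 unfiltered research cigarettes a day for 1 or 5 days, sham mice received room air, and tissue was taken 4 hours after the last exposure. There were 16 groups of 4 to 6 mice, given by genotype, exposure, sex and duration, with 20 smoke and 20 sham mice at 1 day and 19 smoke and 20 sham mice at 5 days. As a model, the βENaC mouse overexpresses a sodium channel subunit in the epithelial cells of its airways, while the RNA came from the whole tissue.

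NADPH carries reducing power in the cell. It recharges glutathione and thioredoxin, drives quinone and carbonyl reductases and is spent in the building of fatty acids. In the oxidative branch of the pentose phosphate pathway, glucose 6-phosphate is oxidized in steps that each yield NADPH, and Pgd (6-phosphogluconate dehydrogenase) carries out the last of them. Taldo1 (transaldolase) and Tkt (transketolase) belong to the non-oxidative branch, which makes no NADPH itself but returns pentose phosphates to glycolysis so that the oxidative branch can run again. Me1 (cytosolic malic enzyme) makes NADPH while it turns malate into pyruvate, and Idh1 (cytosolic isocitrate dehydrogenase) makes it while it turns isocitrate into 2-oxoglutarate. These genes are known targets of NRF2, a transcription factor that responds to oxidants and electrophiles such as those in smoke.

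NRF2 binds antioxidant response elements, whose core can be written TGACNNNGC. The RefSeq promoter windows of GRCm38.p6, which run from 250 bases before to 50 bases after a start site, were searched on both strands for these letters alone, and 4071 of 32851 windows (12.4%) held them. The 5 genes had 8 such windows and 2 of those held a match. The first window of Me1 held TGACTCAGC across its start site, from base -6 to base 3, where the letters also contain TGACTCA, the usual site of AP-1 factors. The second, internal window of Pgd held TGACATTGC from base 4 to base 12 after the start, and no window of Taldo1, Tkt or Idh1 held the letters. The bases before the first start site of Pgd are shown because Pgd was the gene with the largest smoke coefficient of the 5, and those of Me1 because its match lies on the start site. Both are on the minus strand, 5′ to 3′, at chr4:149166706-149166955 and chr9:86695912-86696164, and capitals mark the match.
Pgd: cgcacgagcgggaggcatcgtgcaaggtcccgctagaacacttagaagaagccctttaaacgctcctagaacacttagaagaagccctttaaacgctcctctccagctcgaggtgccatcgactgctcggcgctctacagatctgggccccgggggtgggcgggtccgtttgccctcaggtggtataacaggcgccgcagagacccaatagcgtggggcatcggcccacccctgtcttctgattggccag
Me1: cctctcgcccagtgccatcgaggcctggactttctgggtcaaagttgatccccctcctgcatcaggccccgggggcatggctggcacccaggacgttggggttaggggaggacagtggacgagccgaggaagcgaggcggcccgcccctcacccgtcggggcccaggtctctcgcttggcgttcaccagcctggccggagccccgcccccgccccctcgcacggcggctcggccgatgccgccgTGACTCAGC

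All values are log2 intensities, so a difference of 1 is a doubling, and levels are compared only within a gene. Array medians lay between 4.44 and 4.55, and the lowest correlation between any pair of arrays was 0.965. Scnn1b, the gene that the transgene overexpresses, was 11.69 ± 0.10 (SD, n = 39) in βENaC mice and 8.98 ± 0.21 (SD, n = 40) in WT mice with no overlap. It matched the genotype in every title, while the source names of 13 WT smoke mice gave the other genotype. Lung markers were at a high level, with a mean over 7 alveolar type 2 genes between 11.52 and 11.99 in every mouse. In whole tissue, a change in the number of cells of a type and a change in RNA per cell cannot be told apart.

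Pgd mRNA rose with smoke after 1 day and after 5 days alike. At 1 day its level was 9.01 in the lowest, 9.35 in the median and 9.89 in the highest sham mouse, with a mean of 9.37 ± 0.22 (SD, n = 20). In smoke mice it was 9.44 in the lowest, 9.78 in the median and 10.02 in the highest, with a mean of 9.77 ± 0.16 (SD, n = 20). The groups overlapped, but 13 sham mice lay below every smoke mouse, 5 smoke mice lay above every sham mouse, and 20 of 20 smoke mice exceeded the sham mean of their own genotype and sex. In the additive model of exposure, genotype and sex, the exposure coefficient was 0.41 (SE 0.0568, 95% CI 0.29 to 0.52, limma adjusted p 3.68e-06), a 1.32-fold increase.

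After 5 days the difference was of like size. Sham mice ran from 8.79 through a median of 9.28 to 9.70, with a mean of 9.25 ± 0.22 (SD, n = 20). Smoke mice ran from 9.33 through a median of 9.66 to 9.97, with a mean of 9.66 ± 0.17 (SD, n = 19). Again the groups overlapped, 14 sham mice lay below every smoke mouse, and 18 of 19 smoke mice exceeded their own sham mean. The coefficient was 0.40 (SE 0.0509, 95% CI 0.29 to 0.50, limma adjusted p 7.86e-07), which is also 1.32-fold and lies only just beyond the 1.3-fold threshold of 0.379. Without WT sham female replicate 6 the coefficient was 0.38, just under that threshold, at an adjusted p of 1.14e-06.

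**Figure D1:**
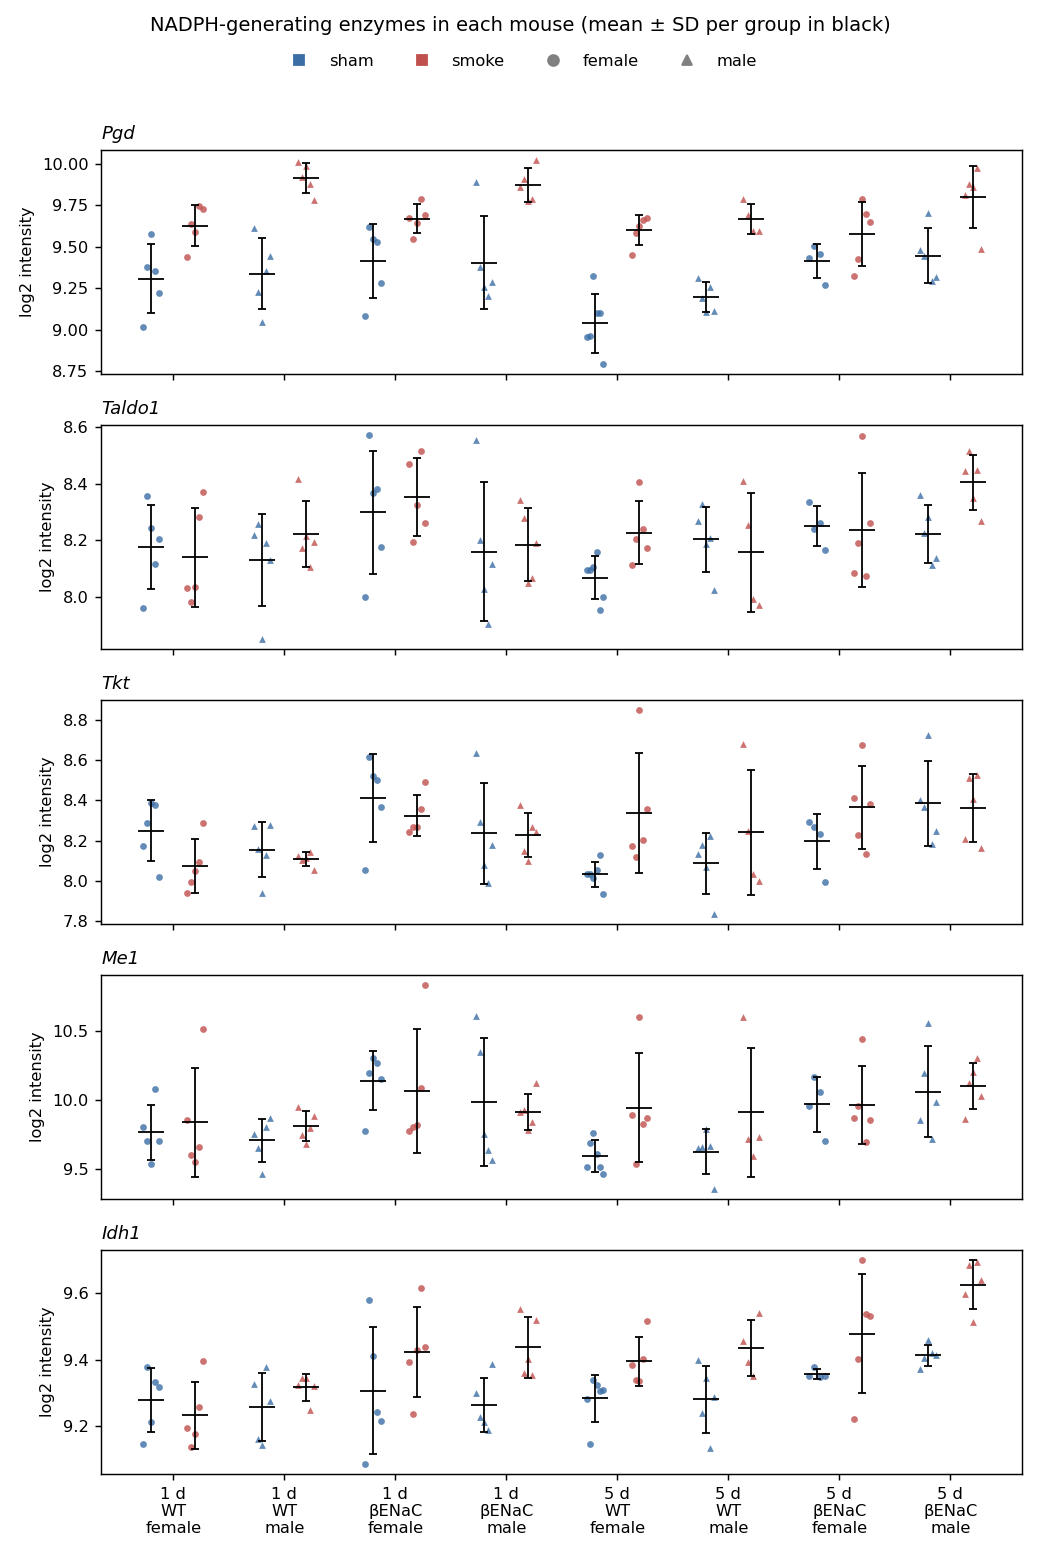
Log2 intensity of each gene in every mouse, with the 8 strata of duration, genotype and sex on the horizontal axis, sham in blue and smoke in red, 1 point per mouse and black bars for the group mean ± SD. Pgd mice shift upward with smoke at both durations, from sham means of 9.37 and 9.25 to smoke means of 9.77 and 9.66. Idh1 smoke mice lie above all sham mice in 1 of 8 strata, βENaC males at 5 days, and Pgd smoke mice do so in 3 other strata. How many of all rows separate in this way was not counted.

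Idh1 changed less and passed the test at 5 days. At 1 day sham mice ran from 9.09 through 9.26 to 9.58 and smoke mice from 9.14 through 9.35 to 9.61, with 1 smoke mouse above every sham mouse. The coefficient of 0.08 (95% CI 0.00 to 0.15) had an unadjusted p of 0.0485 and a limma adjusted p of 0.228. At 5 days sham mice ran from 9.13 through 9.35 to 9.46 and smoke mice from 9.22 through 9.51 to 9.70. Here 10 of 19 smoke mice lay above every sham mouse and 18 exceeded their own sham mean. The coefficient was 0.15 (SE 0.0312, 95% CI 0.09 to 0.21, limma adjusted p 0.0016), a 1.11-fold increase that did not reach 1.3-fold. With the mean of the red cell markers as a covariate, a fit chosen after the data were examined, it was 0.09 (adjusted p 0.402) and no longer passed. That mean itself rose with smoke at 5 days, so the fit cannot fully separate it from exposure.

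The enzymes of the non-oxidative branch overlapped almost fully between exposures. Taldo1 was 7.85 to 8.57 with a median of 8.20 in sham mice and 7.98 to 8.52 with a median of 8.21 in smoke mice at 1 day, and its coefficient was 0.03 (95% CI -0.07 to 0.14, limma adjusted p 0.783). At 5 days it was 7.95 to 8.36 with a median of 8.18 in sham mice and 7.97 to 8.57 with a median of 8.26 in smoke mice, and the coefficient was 0.08 (95% CI -0.01 to 0.16, limma adjusted p 0.353). Even so, 6 of the 5-day smoke mice lay above every sham mouse, which no 1-day smoke mouse did. Tkt was 7.94 to 8.64 with a median of 8.27 in sham mice and 7.94 to 8.49 with a median of 8.15 in smoke mice at 1 day, with a coefficient of -0.08 (95% CI -0.18 to 0.02, limma adjusted p 0.357). At 5 days it was 7.84 to 8.73 with a median of 8.16 in sham mice and 8.0 to 8.85 with a median of 8.25 in smoke mice, with a coefficient of 0.15 (95% CI 0.02 to 0.28, limma adjusted p 0.166). Smoke mice above their own sham mean numbered 5 of 20 at 1 day and 14 of 19 at 5 days for Tkt.

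Me1 had the widest spread of the 5 genes. At 1 day sham mice ran from 9.46 through 9.79 to 10.60 and smoke mice from 9.55 through 9.83 to 10.83, and the coefficient was 0.01 (95% CI -0.17 to 0.19, limma adjusted p 0.97). At 5 days sham mice ran from 9.35 through 9.70 to 10.55 and smoke mice from 9.53 through 9.87 to 10.60, and the coefficient was 0.17 (95% CI -0.00 to 0.35, limma adjusted p 0.281). Smoke and sham mice overlapped over nearly the whole range, with 8 of 20 and 11 of 19 smoke mice above their own sham mean.

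Of the 5 genes, 1 passed an adjusted p of 0.05 together with 1.3-fold for exposure at 1 day, as 1.07% of all rows did, and 1 at 5 days, as 1.15% did. By adjusted p alone the counts were 1 at 1 day, where 9.45% of all rows passed, and 2 at 5 days, where 6.53% passed. Over the 5 genes the median exposure coefficient was 0.03 at 1 day and 0.15 at 5 days, against 0.01 and -0.00 over all rows. None of the 5 had all smoke mice on 1 side of all sham mice, which 0.0287% of rows had at 1 day and 0.0287% at 5 days. The Pgd coefficient exceeded that of each other gene in a permutation test of the paired difference within each mouse (100000 resamples within genotype and sex, 8 tests, chosen after the coefficients were seen). At 1 day it exceeded Taldo1 by 0.37, Tkt by 0.49, Me1 by 0.40 and Idh1 by 0.33, with adjusted permutation p of 6.67e-05 for Me1 and 2e-05 for the others. At 5 days it exceeded Taldo1 by 0.32, Tkt by 0.24, Me1 by 0.22 and Idh1 by 0.25, with adjusted permutation p of 2e-05, 0.000263, 0.00552 and 6.67e-05. The smallest unadjusted p that these resamples can give is 1e-05. Pgd was singled out after its coefficient was seen to be the largest, and the adjustment takes no account of that choice.

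**Figure D2:**
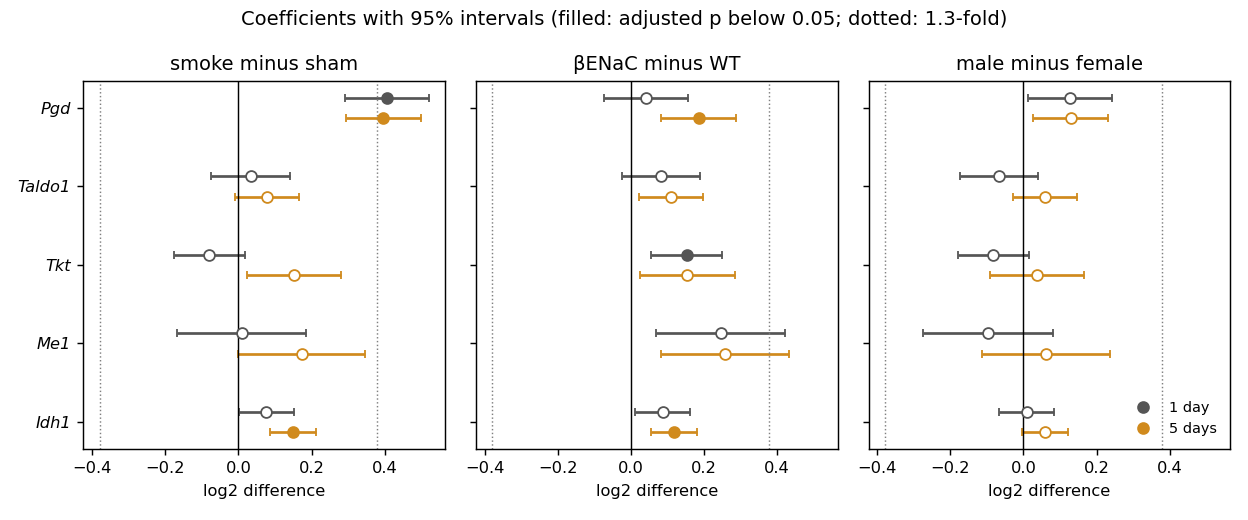
Exposure, genotype and sex coefficients of the 5 genes at 1 and 5 days on the log2 scale, with 95% confidence intervals, filled points for an adjusted p below 0.05 and dotted lines at 1.3-fold (0.379). The exposure coefficients of Pgd, 0.41 and 0.40, stand past the threshold, and those of the other genes lie between -0.08 and 0.17.

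Within each genotype and sex, smoke minus sham was positive for Pgd in 8 of 8 strata. At 1 day it was 0.32 in WT females (exact permutation p 0.0159), 0.58 in WT males (exact p 0.00794), 0.26 in βENaC females (exact p 0.0238) and 0.47 in βENaC males (exact p 0.0317). At 5 days it was 0.56 in WT females (exact p 0.00433), 0.47 in WT males (exact p 0.0159), 0.16 in βENaC females (exact p 0.175) and 0.35 in βENaC males (exact p 0.0159). All smoke mice lay above all sham mice in 3 of these strata, the WT males at 1 day and both WT strata at 5 days. How many of all rows separate in this way within a stratum was not counted, so this is a description. In WT males at 1 day the sham mice were at 9.05, 9.23, 9.35, 9.44 and 9.61 and the smoke mice at 9.78, 9.88, 9.92, 9.99 and 10.01. In βENaC females at 5 days, where the difference was smallest, the sham mice were at 9.27, 9.43, 9.46 and 9.50 and the smoke mice at 9.33, 9.43, 9.65, 9.70 and 9.79. These values interleave.

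Among the other genes, Idh1 was higher in smoke in 7 of 8 strata, with differences from -0.05 to 0.21. Its groups did not overlap in βENaC males at 5 days (exact permutation p 0.00794), again without a count over all rows. Taldo1 was higher in 5 strata, from -0.05 to 0.18, Me1 in 5, from -0.07 to 0.35, and Tkt in 3, from -0.18 to 0.30. Tkt was lower in smoke in 4 of 4 strata at 1 day and higher in 3 of 4 at 5 days. The strata gave 40 tests, all two-sided, of which 0 had an adjusted p below 0.05 (the lowest was 0.0577). With 5 mice against 5 the smallest p that the exact test can give is 0.00794.

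**Figure D3:**
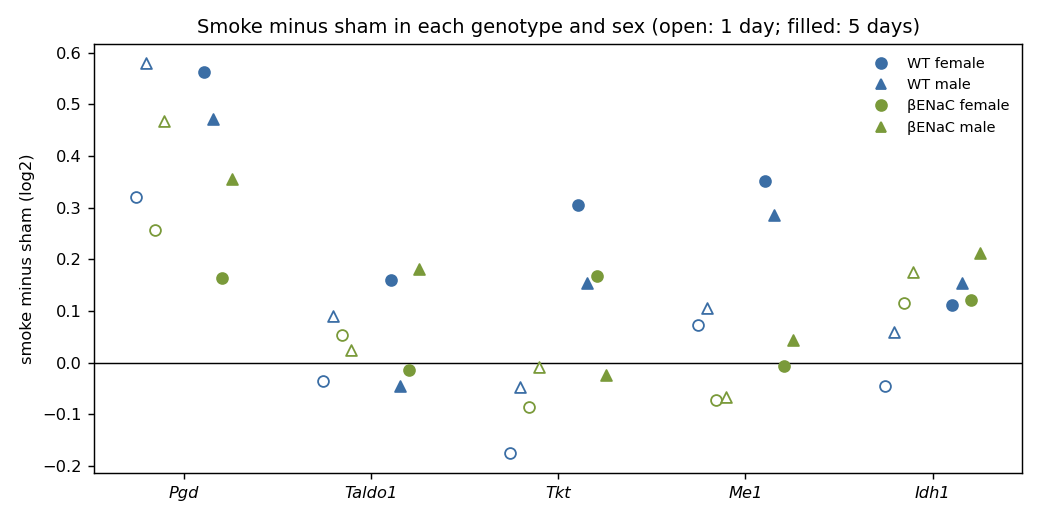
Smoke minus sham difference of the mean log2 intensity for each gene in each genotype and sex at 1 and 5 days, 1 point per stratum of 4 to 6 mice per arm. Pgd lies above 0 in 8 of 8 strata, between 0.16 and 0.58, whereas Tkt lies between -0.18 and 0.30.

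Whether the exposure effect itself depended on genotype, sex or duration was tested with interaction terms. For Pgd the exposure by duration term was -0.00 (95% CI -0.16 to 0.15, limma adjusted p 0.991), and for Tkt, which had the largest such term, it was 0.23 (95% CI 0.07 to 0.39, unadjusted p 0.00524, limma adjusted p 0.145). None of the 5 genes passed for duration, where 1.3% of all rows did, and an ordinary linear model also gave 0 of 5. Only 1 of 5, Tkt, had an unadjusted p below 0.05, and the share of all rows there was not counted. At 5 days the exposure by genotype term of Pgd was -0.26 (95% CI -0.45 to -0.07, unadjusted p 0.00931, limma adjusted p 1.00), with the smaller smoke effect in βENaC mice. At 1 day its exposure by sex term was 0.23 (95% CI 0.01 to 0.46, unadjusted p 0.0382, limma adjusted p 0.773), with the larger effect in males. By limma's F-test of both terms together, 0 of 5 genes passed at either duration, as did 0.00638% of all rows at 1 day and 0% at 5 days. At an unadjusted p of 0.05 the same F-test passed 0 of 5 genes at 1 day and 1 of 5, Pgd, at 5 days. Of all 31350 rows, 2275 passed at that threshold at 1 day and 1084 at 5 days. The ordinary linear model passed 0 of the 5 genes after adjustment.

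The difference between genotypes was positive for the 5 genes at both durations, which is a description of coefficients that mostly did not pass the test. At 5 days Pgd was 8.79 to 9.79 with a median of 9.32 in WT mice and 9.27 to 9.97 with a median of 9.49 in βENaC mice. These ranges overlapped, and the coefficient was 0.18 (SE 0.0510, 95% CI 0.08 to 0.29, limma adjusted p 0.0138). With the mean of the monocyte markers as a covariate it was 0.16 (adjusted p 0.0515) and no longer passed. At 1 day the Pgd coefficient was 0.04 (95% CI -0.07 to 0.16, limma adjusted p 0.784). Idh1 at 5 days was 9.13 to 9.54 with a median of 9.34 in WT mice and 9.22 to 9.70 with a median of 9.42 in βENaC mice. It was higher in βENaC mice by 0.12 (SE 0.0313, 95% CI 0.05 to 0.18, limma adjusted p 0.0107), and by 0.09 (95% CI 0.01 to 0.16, limma adjusted p 0.198) at 1 day.

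Tkt at 1 day was 7.94 to 8.39 with a median of 8.13 in WT mice and 7.99 to 8.64 with a median of 8.27 in βENaC mice. The coefficient was 0.15 (95% CI 0.06 to 0.25) at a limma adjusted p of 0.0495, on the edge of the threshold. Leaving out 1 mouse at a time moved that p between 0.0159 and 0.0847, and 11 of 40 such fits kept it below 0.05. At 5 days Tkt had a coefficient of 0.15 (95% CI 0.03 to 0.28, limma adjusted p 0.127), and it passed in 1 of 39 fits, the one without WT smoke female replicate 3 (adjusted p 0.0224).

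Me1 had the largest genotype coefficients of the 5 genes without passing. They were 0.25 (95% CI 0.07 to 0.42, limma adjusted p 0.0952) at 1 day and 0.26 (95% CI 0.08 to 0.43, limma adjusted p 0.0502) at 5 days. WT mice had medians of 9.75 and 9.68 and βENaC mice medians of 9.91 and 9.98, with wide overlap. Without WT smoke female replicate 5 the 1-day value passed (adjusted p 0.0287), and at 5 days 9 of 39 fits without 1 mouse passed. Taldo1 was 0.08 (95% CI -0.02 to 0.19, limma adjusted p 0.459) and 0.11 (95% CI 0.02 to 0.20, limma adjusted p 0.102) higher.

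Markers of other cell types also differed between genotypes. Of 5 club cell markers, 4 were lower in βENaC mice at each duration by limma, with a mean of 10.34 (10.13 to 10.52) in WT and 10.17 (10.06 to 10.33) in βENaC mice at 1 day and 10.46 (10.33 to 10.59) and 10.18 (10.03 to 10.29) at 5 days, where the genotypes did not overlap. Of 7 alveolar macrophage markers, 3 were higher and 2 lower at each duration, with a mean of 8.39 (8.08 to 8.63) in WT and 8.45 (8.05 to 8.94) in βENaC mice at 1 day and 8.54 (8.18 to 8.76) and 8.61 (8.0 to 8.86) at 5 days. Of 7 alveolar type 2 markers, 2 were higher in βENaC mice at 1 day and 3 at 5 days, with 0 lower. Of all rows, 5.87% and 10.2% passed for genotype by adjusted p. The part of the club cell and alveolar type 2 markers in the genotype coefficients was not tested.

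For genotype, 0 of 5 genes passed with 1.3-fold at 1 day, as 1.54% of all rows did, and 0 at 5 days, as 2.52% did. By adjusted p alone 1 passed at 1 day (5.87% of all rows) and 2 at 5 days (10.2% of all rows). At an unadjusted p of 0.05, 3 passed at 1 day and 5 at 5 days. The share of all rows at that threshold was not counted, so these counts are descriptions. The ordinary linear model passed 0 at 1 day and 2 at 5 days by adjusted p. The median genotype coefficient of the 5 genes was 0.09 and 0.15, against 0.00 and -0.01 over all rows. Between sexes, 0 of 5 genes passed at either duration with or without the fold threshold, where 0.836% and 9.89% of all rows passed at 1 day and 0.198% and 0.616% at 5 days. Pgd was the 1 gene of the 5 with an unadjusted p below 0.05 at each duration, and it was 0.13 higher in males both times (limma adjusted p 0.16 and 0.298). The ordinary linear model passed 0 of 5.

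Over the 8 groups of genotype, exposure and duration, with sexes pooled, Pgd had its 4 highest means in the smoke groups. They were 9.77 ± 0.18 (SD) in WT mice and 9.77 ± 0.14 in βENaC mice at 1 day, then 9.69 ± 0.21 in βENaC mice and 9.63 ± 0.09 in WT mice at 5 days. The sham groups followed with 9.43 ± 0.13 in βENaC mice at 5 days, 9.41 ± 0.24 in βENaC mice at 1 day, 9.32 ± 0.20 in WT mice at 1 day and 9.11 ± 0.16 in WT mice at 5 days. Neighbours in this order differed by more than the larger of their SDs at 2 places, between the lowest smoke group and the highest sham group (0.20) and between the WT sham groups (0.21). For the other 4 genes no pair of neighbours differed by that much. Taldo1 and Tkt were highest in βENaC smoke mice at 5 days (8.32 and 8.36) and lowest in WT sham mice at 5 days (8.13 and 8.06). Me1 was highest in βENaC sham mice at 1 day (10.06) and lowest in WT sham mice at 5 days (9.61). Idh1 was highest in βENaC smoke mice at 5 days (9.55) and lowest in WT sham mice at 1 day (9.27).

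Of 16 other measured genes whose enzymes supply NADPH or belong to the same pathway, 2 were higher in smoke at 1 day, where 9.45% of all rows passed by adjusted p, and 2 at 5 days, where 6.53% passed. H6pd, which runs the oxidative branch inside the endoplasmic reticulum, rose by 0.28 (limma adjusted p 7.65e-05) and 0.19 (0.00369). The lactonase Pgls had coefficients of -0.04 and -0.02, and G6pd2, a retrogene relative of glucose 6-phosphate dehydrogenase, -0.02 and 0.01, and neither passed. G6pdx, which codes for the main form of that enzyme, was not analysed here. The 5 further genes of the non-oxidative branch, Tktl1, Tktl2, Rpia, Rpe and Shpk, had coefficients from -0.10 to 0.12. With Taldo1 and Tkt, 0 of 7 genes of that branch passed for exposure at either duration by limma or the ordinary linear model. An unadjusted p below 0.05 was found for 0 at 1 day and 2 at 5 days, without a count over all rows. The cytosolic folate enzymes Mthfd1 and Aldh1l1 did not pass, with coefficients of -0.05 and -0.09 at 1 day and 0.03 and 0.25 at 5 days.

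Of 6 mitochondrial sources, Mthfd2, a mitochondrial folate enzyme, rose by 0.46 at 1 day (limma adjusted p 0.00384), and its 5-day coefficient was -0.02 (adjusted p 0.96). Idh2, the mitochondrial counterpart of Idh1, had -0.00 at 1 day and rose by 0.13 at 5 days (limma adjusted p 0.0275). Me3, Mthfd2l, Aldh1l2 and Glud1 did not pass, with coefficients from -0.11 to 0.15. Mthfd2 was also 0.57 higher in βENaC mice at 5 days (limma adjusted p 9.35e-05), the 1 gene of the 16 that differed between genotypes there. Of the NAD kinases, which make NADP from NAD, the mitochondrial Nadk2 rose by 0.15 with smoke at 5 days (limma adjusted p 0.0192) and was at -0.01 at 1 day, while Nadk was at -0.07 and -0.00.

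Reductases that spend NADPH held the largest exposure coefficients of the lists of NADPH metabolism. Of 10 reductases, 6 rose with smoke at 1 day and 7 at 5 days by limma adjusted p, and none fell. Of all rows, 9.45% and 6.53% passed. The list was chosen with earlier results of these data known and holds Nqo1, a key smoke-induced gene in the paper. Its count and median are therefore descriptions and no independent support. Nqo1, a quinone reductase, rose by 2.87 and 2.64 (limma adjusted p 2.79e-25 and 1.8e-20), and the carbonyl reductase Cbr3 by 1.83 and 1.44. Txnrd1, the cytosolic thioredoxin reductase, rose by 0.83 and 0.60, Akr1b8 by 0.68 and 0.58, Blvrb by 0.44 and 0.41 and Cbr1 by 0.24 and 0.32. Gsr, the glutathione reductase, had a coefficient of 0.17 at both durations and passed at 5 days (limma adjusted p 0.289 and 0.0311). Txnrd2 had the smallest coefficients, -0.09 and -0.11, and did not pass. The median over the 10 was 0.34 and 0.37, against 0.03 and 0.15 for the 5 NADPH genes and 0.01 and -0.00 for all rows, and no test was made between the lists.

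Lists of neighbouring metabolism are given against the same shares of all rows by adjusted p, 9.45% at 1 day and 6.53% at 5 days. For counts at an unadjusted p of 0.05 the share of all rows was not counted, so they are descriptions. Of 6 NAD-linked relatives, which run like reactions without NADP, 0 passed by limma or by the ordinary linear model at either duration (0 and 4 at an unadjusted p of 0.05), with coefficients from -0.07 for Mdh1 at 1 day to 0.16 for Idh3a at 5 days. Of 13 glycolysis genes, Hk1 rose by 0.12 at 1 day (limma adjusted p 0.00965) and Pfkp fell by 0.16 at 5 days (0.019), while Hk3 had the lowest coefficients, -0.33 and -0.20, and Hk2 the highest at 5 days, 0.22, without passing. Between genotypes 4 of the 13 were higher in βENaC mice at 1 day and 4 at 5 days, where 5.87% and 10.2% of all rows passed. Of 7 genes of fatty acid synthesis, a large user of cytosolic NADPH, 1 fell at 1 day, Acly by 0.17 (limma adjusted p 0.0252). Acaca and Srebf1 rose at 5 days by 0.24 and 0.14 (limma adjusted p 0.0334 and 0.0495), and Elovl6, at 0.39, did not pass.

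**Figure D4:**
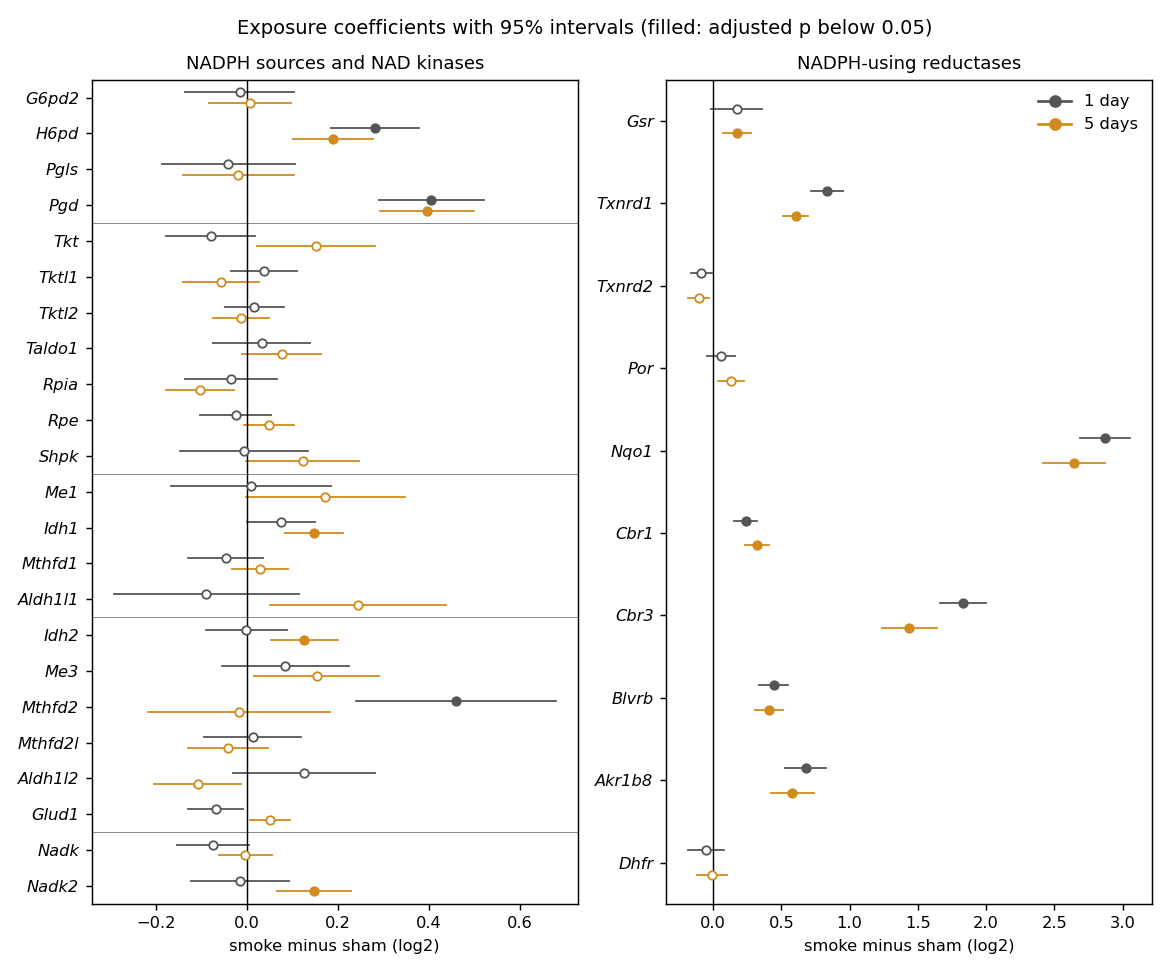
Exposure coefficients at 1 and 5 days for the genes that supply NADPH and the reductases that use it, on the log2 scale with 95% confidence intervals and filled points for an adjusted p below 0.05, each panel with its own axis. Most supply genes lie near 0, with Pgd at 0.41 and 0.40, whereas Nqo1 reaches 2.87 and 2.64.

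Mice of the same group still differed from each other, and the 5 genes varied together among them. After each value was set against its group mean, Tkt and Me1 had the highest correlation over 79 mice (Pearson r 0.78, Spearman rho 0.71). It was 0.69 at 1 day and 0.88 at 5 days, and 0.75 without the 2 mice farthest from the median of Tkt. Taldo1 and Tkt followed (r 0.72, rho 0.64), then Pgd and Taldo1 (r 0.71, rho 0.66) and Pgd and Tkt (r 0.66, rho 0.67). Each of these had a permutation p of 1e-05 for r and for rho, adjusted to 2.5e-05 over the 10 pairs. Without the 2 farthest mice they were 0.69, 0.72 and 0.66. Within durations, Pgd and Taldo1 gave 0.80 and 0.57, Pgd and Tkt 0.82 and 0.54, and Taldo1 and Tkt 0.72 and 0.76.

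Idh1 was the gene least tied to the others. Its correlation with Tkt was 0.30 (rho 0.30, permutation p 0.0178 and 0.0175, adjusted 0.0178 and 0.0175), and it was 0.54 at 1 day but 0.09 at 5 days. With Me1 it was 0.30 (rho 0.32, permutation p 0.0171 and 0.00782, adjusted 0.0178 and 0.00869), with 0.38 and 0.19 within durations. Without the 2 mice farthest from the median these were 0.35 and 0.31. The other 4 pairs had r between 0.48 and 0.54 and rho between 0.41 and 0.54, with an adjusted permutation p of at most 0.000162 for r and 0.00184 for rho, and r between 0.43 and 0.53 without the 2 farthest mice. Of these, Taldo1 and Idh1 had 0.67 at 1 day and 0.26 at 5 days. As background, 0.00638% of all rows correlated with Tkt at least as highly as Me1 did, and 0.0574% with Pgd at least as highly as Taldo1 did. At the other end, 10.1% of rows correlated with Tkt at least as highly as Idh1 did.

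**Figure D5:**
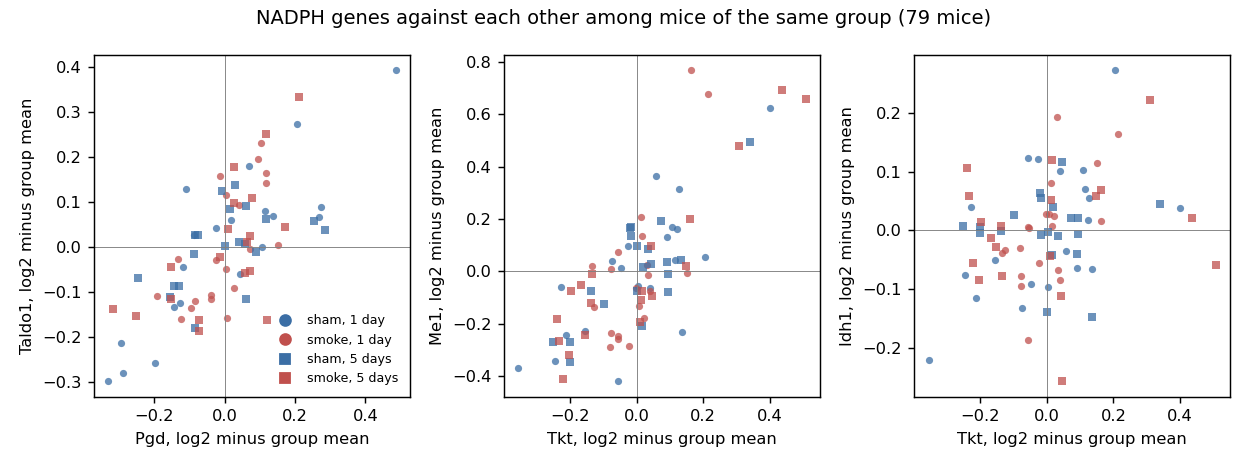
Deviation of each mouse from its group mean for 3 pairs of the 5 genes, in log2 units, 1 point per mouse (79 mice). Tkt and Me1 line up most closely (r 0.78), and Idh1 with Tkt least (r 0.30).

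Levels of cell markers also moved among these mice, and their part in the correlations was not tested. Over 45 pairs of gene and marker list, chosen after the data were examined, the mean of 6 monocyte markers correlated within groups with Taldo1 (r 0.64, rho 0.61), Pgd (r 0.62, rho 0.56) and Tkt (r 0.57, rho 0.56), each at an adjusted permutation p of 9e-05 for r and for rho. Its r with Pgd was 0.76 at 1 day and 0.35 at 5 days. The mean of 8 neutrophil markers correlated with Pgd (r 0.59, rho 0.52) and Taldo1 (r 0.56, rho 0.54), both with an adjusted permutation p of 9e-05. Me1 correlated with 5 brown fat markers (r 0.55, rho 0.52, adjusted permutation p 0.00015 and 0.0003), with 6 white fat markers (r 0.47, rho 0.48, adjusted 0.00326 and 0.000643) and with 5 red cell markers (r 0.53, rho 0.42, adjusted 0.000964 and 0.00163). Without the 2 mice farthest from the median r was 0.65, 0.62 and 0.59 for Taldo1, Pgd and Tkt with monocyte markers and 0.55 and 0.49 for Pgd and Taldo1 with neutrophil markers. For Me1 it was 0.54 with brown fat, 0.40 with white fat and 0.36 with red cell markers.

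Some of the marker lists also differed between exposures. By limma adjusted p, 9.45% of all rows passed at 1 day and 6.53% at 5 days. At 1 day 3 of 5 club cell and 3 of 6 ciliated cell markers were lower in smoke and 0 higher. At 5 days 2 of 7 alveolar macrophage and 2 of 7 alveolar type 2 markers were lower and 0 higher. The monocyte mean was 7.85 (7.06 to 9.09) in sham and 7.38 (6.99 to 7.94) in smoke mice at 1 day and 7.68 (7.27 to 8.08) and 7.28 (6.48 to 7.81) at 5 days, with 4 of 6 markers lower by limma at each duration. With their mean as a covariate, a fit chosen after the data were examined, the Pgd coefficient was 0.54 at 1 day and 0.47 at 5 days. The 1-day fit also passed Taldo1 (0.16, limma adjusted p 0.0316) and Idh1 (0.13, 0.0254), but not Tkt or Me1. Of all 31350 rows, 2251 passed there by adjusted p. The 5-day fit also passed Tkt (0.28, limma adjusted p 0.0454), Me1 (0.37, 0.039) and Idh1 (0.18, 0.00791), but not Taldo1 (0.0562). There 918 of the 31350 rows passed.

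Red cell markers rose at 5 days in 5 of 5 genes, with a mean of 6.11 (5.34 to 6.88) in sham and 7.25 (6.00 to 7.98) in smoke mice. With their mean as a covariate, the 5-day coefficient of Pgd was 0.27 (limma adjusted p 0.065) and that of Idh1 was 0.09 (adjusted p 0.402), so neither passed. The red cell mean itself followed exposure at 5 days (SD 0.50 in sham and 0.47 in smoke mice), so this fit cannot fully separate it from exposure. Within groups the red cell mean correlated with Pgd at r 0.12 (rho 0.12, adjusted permutation p 0.452 and 0.494) and with Idh1 at r 0.18 (rho 0.19, adjusted 0.315 and 0.256). At 1 day, where the red cell mean was 5.76 (4.69 to 6.71) in sham and 6.27 (5.56 to 8.76) in smoke mice and 0 of 5 markers passed by limma (3 at an unadjusted p of 0.05, 0 by the ordinary linear model), the Pgd coefficient was between 0.40 and 0.54 under the covariates tried. The brown fat mean was 5.35 (4.46 to 6.69) and 5.77 (4.54 to 7.59) at 5 days, with 0 of 5 markers passing by limma (3 at an unadjusted p of 0.05, 0 by the ordinary linear model). With it as a covariate Pgd was at 0.37 (limma adjusted p 3.15e-06), under 1.3-fold. Whether any of these cell types carried the changes of the 5 genes was not tested.

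Across the 16 group means, the gene most like Pgd was Txnrd1 (Pearson r 0.96), followed by Abcc1 (0.94) and Prrg3 (0.94), out of 21754 named genes. Taldo1 was most like Draxin (0.88), Prdx1 (0.84) and Psmd13 (0.83), and Tkt most like Kng2 (0.85), Nt5c2 (0.84) and Spink5 (0.81). Me1 was most like Hspa9 (0.91), Kng2 (0.90) and Spink5 (0.89), so that Tkt and Me1 shared 2 of their 3. Idh1 was most like Arfgef2 (0.92), C77080 (0.89) and Mmrn1 (0.87). Among the 5 genes themselves, Tkt and Me1 were most alike over group means (0.85) and Pgd and Tkt least (0.29). The group means share exposure, genotype and sex, and these values are descriptions of likeness with no test.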

How the data were processed

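The authors hybridized lung RNA of each mouse to 1 array on a single plate and deposited log2 intensities, 1 value per row and mouse, made with RMA background correction, quantile normalization and median polish (Affymetrix Expression Console 1.4 and Partek 6.6, per the labels). The authors had dropped 1 array as wrongly labelled for smoke, judged by plasma cotinine and by expression itself. The values were taken unchanged, and no column was left out. Symbols came from RefSeq by transcript identifier, and from the study's supplementary tables where RefSeq lacked the identifier. Of the rows, 2537 were in the study's tables, 19300 were named from RefSeq alone and 9513 had no symbol. The row with the highest mean stood for a gene.

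Each duration was fitted over all 31350 rows with limma 3.58.1 in R 4.3.3 (linear fit with empirical Bayes moderation), using additive terms for exposure (smoke minus sham), genotype (βENaC minus WT) and sex (male minus female), as the study's methods do with a general linear model. Interaction terms were added in fits of their own, and exposure by duration was fitted in all mice. Benjamini-Hochberg adjustment of p-values ran over all rows, with a threshold of 0.05 and, for a call, a coefficient beyond 0.379 (1.3-fold). The number of all rows at an unadjusted p of 0.05 was counted only for the F-test of the interaction terms. The files were read with the data.table package (version 1.17.8). Permutation tests were run in Python 3.11.15 with scipy 1.17.1 and numpy 2.4.6, two-sided, exact within strata and with 100000 resamples for correlations, and figures were drawn with matplotlib 3.10.9. The limma script was tested on simulated data.

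The genes named were the 5 members, the genes of the lists of NADPH sources and NAD kinases, in other lists the genes that passed for exposure at both durations and those with the largest and the smallest coefficient, Nqo1, Scnn1b and, for each member, the 3 genes most like it. Other genes of the lists were named where few passed. Members and lists were chosen with earlier results of these data known. Groups came from titles, and the labels treat each mouse as its own sample. The labels used do not give litters or say what the replicate numbers mean, so mice were not matched by them. Shared litters could not be taken into account. Precision is set by the number of arrays. Signal over background was not analysed here.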

Additional observations from a re-analysis of the deposited data

Results flagged for a closer look

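In 80 groups of 4 to 6 mice and 1 gene each, 5 held a mouse whose gap to the nearest other mouse was large for the range of its group, where chance gives about 1 in 20. Pgd was 9.89 in βENaC sham male replicate 1 at 1 day, against 9.21 to 9.38 in the others of its group, a level within the range of the smoke mice. Me1 was 10.60 in WT smoke male replicate 2 at 5 days, against 9.59 to 9.73 in the others. The same mouse had white and brown fat marker means of 7.84 and 7.40, against 6.06 to 6.29 and 4.74 to 4.95 in the others. Their part in the Me1 value was not tested. Idh1 had the 3 remaining ones, all with small gaps. It was 9.38 in βENaC sham female replicate 2 at 5 days (others 9.35 to 9.35), 9.15 in WT sham female replicate 2 at 5 days (others 9.28 to 9.34) and 9.25 in WT smoke male replicate 4 at 1 day (others 9.32 to 9.34).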

How the results depend on the processing

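With a 1.5-fold threshold, 0 genes passed for exposure at 1 and 5 days, and with no fold threshold 2 passed for exposure at 5 days, 1 for genotype at 1 day and 2 for genotype at 5 days. Under the 8 planned settings that keep all mice, Pgd had an exposure coefficient of 0.40 to 0.44 at 1 day and 0.38 to 0.40 at 5 days with an adjusted p of at most 1.36e-05. Tkt for genotype at 1 day no longer passed in an ordinary linear model (adjusted p 0.0546 at 0.15), 1 fit over all mice (0.0973 at 0.15), with arrays centred on their medians (0.0671 at 0.14), after quantile normalization again (0.0705 at 0.14) or with array weights (0.0504 at 0.14). Me1 for genotype at 5 days passed with centred arrays (0.26, adjusted p 0.046) and without the lowest 30% of rows (0.26, 0.0384). Signs turned for values near 0 that did not pass: after quantile normalization Me1 for exposure at 1 day (-0.0029), Pgd for exposure by duration (0.00161), Taldo1 for exposure by genotype at 1 day (-0.032, and -0.026 with centred arrays) and Idh1 for sex at 1 day (-0.027, and -0.0073 with centred arrays), and with array weights exposure by sex at 5 days for Taldo1 (0.012) and Me1 (0.026). The cause was not tested.

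Mice with the same replicate number showed little likeness (mean correlation of deviations 0.023 for the same number and -0.00553 for others at 1 day). These means cannot exclude shared litters. With the replicate number as a block, Pgd for exposure was 0.41 and 0.38, Tkt for genotype at 1 day no longer passed (0.15, adjusted p 0.0653) and Me1 for genotype at 5 days passed (0.25, adjusted p 0.0353).

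Marker covariates were chosen after the data were examined. For exposure at 5 days 0 genes passed adjusted p together with 1.3-fold with the brown fat or with the red cell mean. By limma adjusted p alone, Pgd (3.15e-06) and Idh1 (0.00384) still passed with brown fat. With red cells, coefficients were 0.27 for Pgd, 0.092 for Idh1, -0.076 for Taldo1, -0.031 for Tkt and -0.17 for Me1 at 5 days and -0.095 for Me1 at 1 day. Across all rows 1073 passed with 1.3-fold for exposure at 5 days instead of 362, but 1944 instead of 2048 by adjusted p alone. With monocytes, they were 0.16 for Taldo1, 0.031 for Tkt and 0.13 for Idh1 at 1 day, and 0.28 for Tkt and 0.37 for Me1 at 5 days, and Pgd for genotype at 5 days no longer passed (0.16, adjusted p 0.0515). For genotype, Tkt at 1 day no longer passed with white fat (0.15) or macrophage markers (0.15) and at 5 days passed with white fat (0.19) and brown fat (0.18). Me1 passed with white fat (0.31 and 0.30), brown fat (0.27 and 0.29) and, at 1 day, red cells (0.26).

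Leaving out 1 mouse at a time gave 0 to 1 genes past adjusted p and 1.3-fold for exposure at 5 days. The Pgd exposure coefficient ran from 0.39 to 0.43 at 1 day and 0.38 to 0.41 at 5 days. Coefficients ran from 0.13 to 0.17 for Tkt and 0.20 to 0.28 for Me1 for genotype at 1 day, from 0.13 to 0.19 and 0.22 to 0.30 at 5 days, and from -0.033 to 0.044 for Me1 for exposure at 1 day. Among values that did not pass, they ran from -0.033 to 0.11 and -0.092 to 0.077 for Me1 exposure by sex at 1 and 5 days, -0.026 to 0.014 for Pgd exposure by duration, -0.021 to 0.055 and -0.015 to 0.051 for Taldo1 exposure by genotype, -0.033 to 0.030 for Taldo1 exposure by sex at 5 days and -0.0042 to 0.023 for Idh1 sex at 1 day. A choice of other rows for a gene could not be run, since each had 1 row. With 19 or 20 mice an arm, the median SE of an exposure coefficient was 0.05.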
